A study of Mus musculus with 9 samples.

Results

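The control cultures were LSK cells from mouse bone marrow kept for 72 h in medium with cytokines, and they are described here by the level of each gene within them. LSK cells lack the surface markers of mature blood lineages, carry Sca1 and cKit, and hold the blood stem cells and early progenitors. The controls made up 3 of the 9 single-colour arrays in the study and were taken by their titles, which name control cells and the 72 h culture. The other arrays were 3 cultures of Drosha-deleted and 3 of Dicer-deleted cells. All cells came from female mice of the strain Gt(ROSA)26Sor CreERT2, in which a Cre enzyme that tamoxifen activates is made from the Rosa26 locus, and the deleted groups also carried Drosha fl/fl or Dicer fl/fl. The labels name no floxed allele for the controls. Every group, the controls included, received 250 nM 4OH-tamoxifen, 10 ng/mL IL-3, 10 ng/mL IL-6 and 50 ng/mL stem cell factor (SCF) in medium with 10% serum, at 50000 cells per well. The cells were sorted before the 72 h and not again afterwards, so the name LSK describes what was put into culture. Neither the age of the mice nor whether each repeat had its own animal is given in the labels. A p-value here therefore reflects only how far these samples spread, which may be technical, and precision is limited by how few arrays there are.

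Blood stem cells sit at the top of a tree of progenitors, which lose the potential for some lineages as they gain granules, receptors and surface proteins of others. SCF binds the receptor Kit, IL-6 binds Il6ra together with the shared chain Il6st, and IL-3 binds Il3ra together with Csf2rb or, in the mouse, its close copy Csf2rb2. These cytokines drive division and favour granulocytes, monocytes, mast cells, basophils and megakaryocytes over lymphocytes. The study itself compared control with deleted cells, and the question here is which stem cell, cytokine and lineage genes the controls showed before any such comparison.

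Levels are the authors' log2 values. A gene was represented by its probe with the highest control mean, and its percentile is the share of 36413 genes and regions that had a lower control mean. Brightness also depends on the sequence of the probe, so the order of genes is an order of brightness and not of RNA amount. In bulk RNA, fewer cells of a type and less RNA per cell cannot be told apart. A gene is called detected where its probe was marked as well above background on the arrays of controls 1 and 3.

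The arrays did not behave alike. Control 2 had 93.2% of its spots marked well above background and 18.9% marked non-uniform, against 54.2% to 62.3% and at most 0.0472% on the other 8 arrays, and a median processed signal of 529 against 31.0 to 53.8. The authors' log2 column for control 2 followed the scanner file of control 3 (Spearman 0.924 over probes) more closely than its own file (0.813), which is why its file was not used for detection. The same column also followed the files of control 1 and of the 6 deleted arrays more closely than its own (0.899 to 0.909). Control 3 was the only array on its slide, and the other 8 shared a slide. The authors' columns of controls 2 and 3 correlated at 0.990 with each other over 55681 probes and at 0.980 and 0.985 with control 1. The column of control 1 correlated at 0.989 to 0.993 with the 6 columns of deleted cells, above its correlation with the other controls. Controls 2 and 3 correlated at 0.977 to 0.985 with the deleted columns. The targeted genes followed the labels in all 9 columns. Drosha stood at 12.04, 11.88 and 11.85 in controls 1 to 3, at 8.81 to 9.32 in the Drosha-deleted cells and at 11.94 to 12.16 in the Dicer-deleted cells. Dicer1 stood at 9.92, 10.50 and 10.44 in the controls, at 8.97 to 9.18 in the Dicer-deleted cells and at 10.00 to 10.80 in the Drosha-deleted cells. Each value below is therefore given for the 3 controls separately wherever a result turns on it.

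Of 36413 genes and regions, 21439 were detected (58.9%). The median log2 level was 9.49 over detected genes and 5.50 over the others, so values near 5.5 are at background. Over all genes the median was 6.80, and the top 10% began at 12.87. The SD over the 3 controls had a median of 0.233 among detected genes and passed 1 in 319 of them (1.49%). Across 22 lists of genes with 461 distinct members on the array, 370 members were detected and the median member lay at the 74.5th percentile. The lists of housekeeping, primary granule, cell cycle and megakaryocyte genes had the highest median percentiles, and those of genes of other tissues, B cells, T and NK cells and cytokines the lowest.

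**Figure D1:**
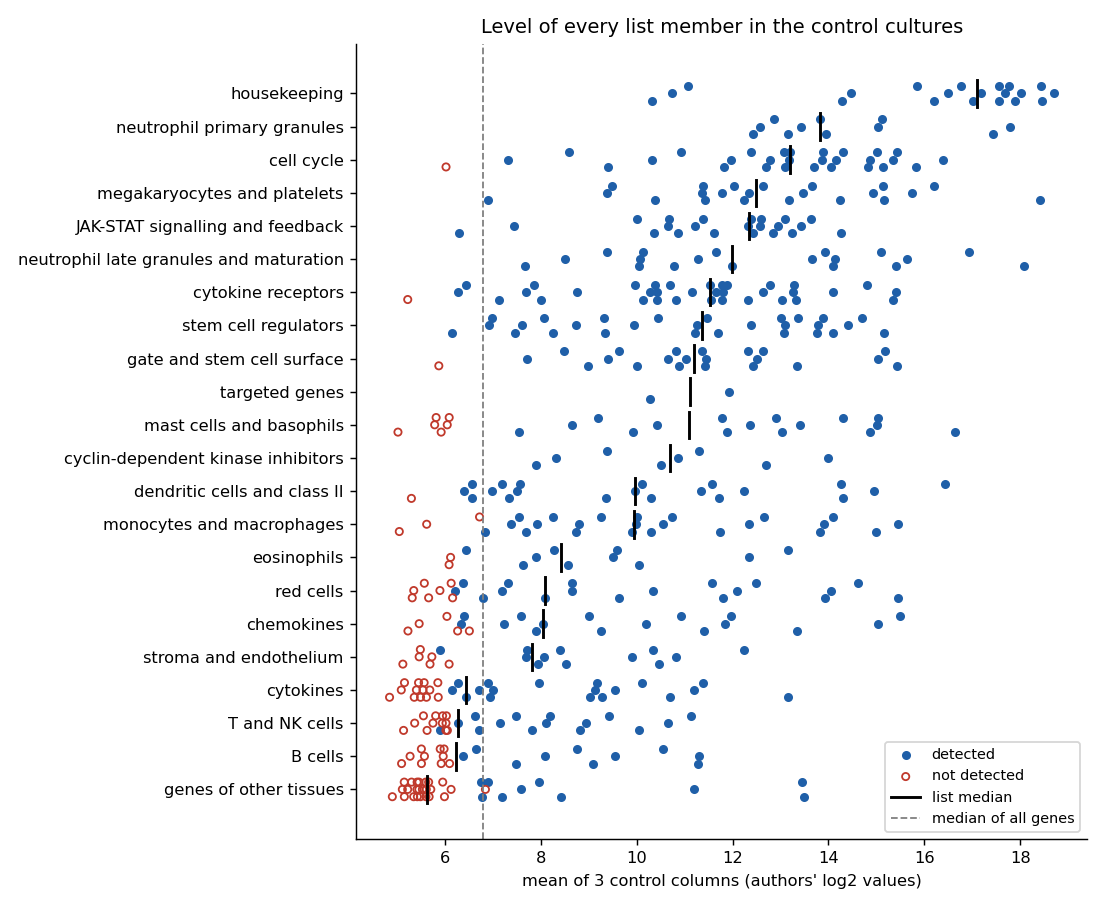
Mean authors' log2 value over the 3 control columns (horizontal axis) of every list member on the array, by list; filled blue points are detected, open red points are not detected, black bars are list medians and the dashed line is the median of all genes (6.80). Housekeeping and primary granule genes lie furthest right, and most genes of other tissues lie at background.

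The brightest named genes were mostly of the ribosome. Rps14, a protein of the small ribosomal subunit, was brightest at 18.77, 18.64 and 18.77 in controls 1 to 3, and Rplp0, Rpl37a, Rpl41, Rpl10, Rpl14, Rps20 and Rpl35 were also among the first 12. That group also held Kctd14 (18.60, 18.51 and 18.54) and F10 (18.57, 18.55 and 18.48), the latter the gene of a coagulation factor made in the liver. Further probes for both genes were far dimmer, at 8.74 and 6.26 for Kctd14 and at 12.74 for F10. The sequences show what the bright probes have in common. In the probe letters below, capitals mark the longest run shared with the 60-base F10 probe, within a window of 30 bases.
F10: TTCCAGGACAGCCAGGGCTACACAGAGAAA
Kctd14: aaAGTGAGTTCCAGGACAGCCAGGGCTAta
Elk1: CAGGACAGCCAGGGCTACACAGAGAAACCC
Med16: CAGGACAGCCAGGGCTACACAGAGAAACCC
Siglech: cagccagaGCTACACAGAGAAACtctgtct
These letters resemble the B1 family of short interspersed repeats, which occurs in many mouse transcripts. In all, 28 other probes shared 14 or more bases with the F10 probe. Shared stretches with a long run of A were not counted. Probes that carry only a probe number as a name were left out of the 28, but not of the figures over all probes. All 28 were detected, with log2 levels from 6.61 to 18.55 and a median of 13.81, against a median of 6.29 and 52.2% detected over all probes. Siglech was the only list member among them, and the share of the repeat in its brightness was not tested.

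The gate genes were present but not equally steady. Of 22 surface genes used to define stem cells and progenitors, 21 were detected, and the median lay at the 80.8th percentile. Kit, the receptor for SCF and a gate marker, stood at 12.01, 12.43 and 12.50, lowest in control 1. Ly6a, which encodes Sca1, stood at 12.27, 10.11 and 10.73, highest in control 1, with an SD of 1.11 that was the only one above 1 among the detected gate genes. Cd34, a surface protein of progenitors, stood at 15.10, 15.43 and 15.00 on its brighter probe and 8.96, 9.23 and 8.68 on the other. Cd9, a tetraspanin of stem cells and megakaryocytes, stood at 15.12, 15.66 and 15.49. Thy1 at 14.62, 14.96 and 15.50 and Cd48 at 13.35, 13.30 and 13.40 completed the 4 genes of this list in the top 10%. Cd48 marks progenitors rather than the most primitive stem cells. Slamf1 (CD150), which marks those stem cells, was lower in the order at 9.29, 9.86 and 9.06, as was Procr (EPCR) at 9.93, 10.29 and 9.83. Flt3, the receptor of multipotent progenitors with lymphoid potential, stood at 10.68, 10.97 and 10.80. The stem cell marker Fgd5 was not well above background at 5.53, 6.18 and 5.91. Sca1 and cKit transcripts were thus both detected, while markers of mature lineages described below were detected as well.

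All 28 transcription factors and regulators of stem cells were detected, with a median percentile of 81.9 and 11 members in the top 10%. Lmo2, a bridging protein of the stem cell transcription factor complex, was brightest at 14.84, 15.57 and 15.07. Its partners Lyl1 (14.87, 14.71 and 14.49) and Tal1 (13.19, 14.03 and 14.07) were also in the top 10%. Myb, which progenitors need for division, stood at 14.04, 14.63 and 14.58. Meis1, a cofactor of Hox proteins, followed at 13.84, 14.25 and 14.19. The Hox genes themselves were dimmer, with means of 10.44 for Hoxb4 and 8.07 for Hoxa9, and Hoxa10 had 6.27, 7.50 and 7.01. Mecom, a regulator tied to the most primitive stem cells, was the dimmest member at 6.11, 6.19 and 6.17, close to the 95th percentile of undetected genes, which was 6.14, even though its probe was marked as detected. Control 1 had the lowest value of the 3 for 23 of the 28, among them Myc at 12.37 against 13.63 and 13.26.

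Receptors for each cytokine in the medium were detected. Kit is given above. For IL-3, Il3ra stood at 11.39, 11.58 and 11.68, Csf2rb at 15.40, 14.84 and 15.77, and Csf2rb2 at 15.00, 14.15 and 15.27. The shared chains were thus among the brightest receptors in every control, with control 2 the lowest for both. For IL-6, Il6ra stood at 12.04, 11.73 and 11.55 and Il6st at 10.57, 10.39 and 10.33. The probes of Csf2rb (chr15:78181168-78181227, mm9) and Csf2rb2 (chr15:78113126-78113185, mm9) are close copies over part of their length. The 30 bases where they are most alike are shown here with the 3 mismatches in capitals (90% identity). Their values therefore cannot be assigned to a single gene with certainty.
Csf2rb: ggcagatcaaAtgtCccttggtctCtgttc
Csf2rb2: ggcagatcaaGtgtTccttggtctAtgttc
A further probe of each gene was also detected, at means of 11.75 for Csf2rb and 12.92 for Csf2rb2. Among all 35 cytokine receptors, 34 were detected and the median lay at the 82.9th percentile. Csf3r, the receptor for granulocyte colony-stimulating factor, was highest at 15.56, 15.31 and 15.34. Csf1r, which monocytes and macrophages use, stood at 14.22, 13.75 and 14.34. The receptor of red cell growth, Epor, was detected too at 11.81, 11.98 and 11.61. Il7r, which lymphoid progenitors need, was dimmer at 8.91, 8.54 and 8.82, and Osmr was the only receptor not well above background at 5.22, 5.58 and 4.87.

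**Figure D2:**
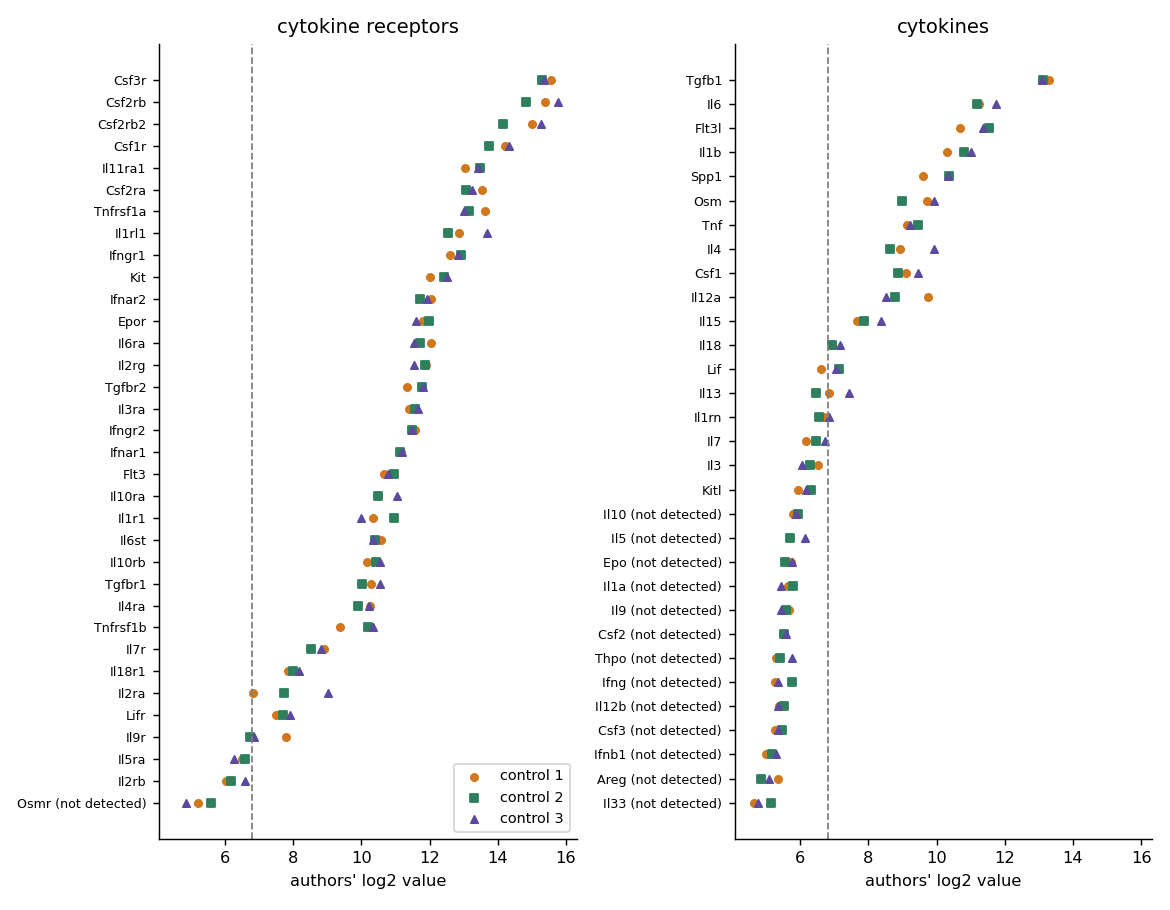
Authors' log2 values (horizontal axes) of 34 of the 35 cytokine receptors and of 31 cytokines in controls 1 (circles), 2 (squares) and 3 (triangles), ordered by mean; the dashed line is the median of all genes (6.80). Receptor means reach 15.4 and only Osmr is not detected, while 13 cytokines are not detected.

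Of the cytokines themselves 18 of 31 were detected (58.1%), a share near the 58.9% of all genes, with a median at the 45.5th percentile. Tgfb1, which restrains stem cell division, was the only one in the top 10% at 13.28, 13.13 and 13.09. Of the 3 cytokines supplied in the medium, only Il6 had a level clear of background, at 11.25, 11.17 and 11.74. Il3 stood at 6.51, 6.28 and 6.05 and Kitl, which encodes SCF, at 5.93, 6.33 and 6.16, both marked as detected but close to that 95th percentile. Flt3l, the ligand of Flt3, stood at 10.68, 11.52 and 11.37, lowest in control 1. The inflammatory cytokine Il1b stood at 10.31, 10.79 and 11.01. Il33, Areg and Ifnb1 had the lowest means, 4.85, 5.09 and 5.16, and Csf2, Csf3, Epo and Thpo were likewise not well above background.

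Chemokines of myeloid cells were among the brightest genes, while 5 of the 21 chemokines were not detected. The 16 others were detected, and the median of the list lay at the 61.3rd percentile. Ccl6 stood at 16.02, 15.04 and 15.40, Ccl9 at 15.05, 14.75 and 15.27, and Ccl3 at 13.26, 13.03 and 13.77. These 3 genes, made by myeloid cells, were the members in the top 10%, and in each of them control 2 was lowest. Xcl1, Cxcl12 and Cxcl9 were not detected and had the lowest means, Cxcl12 at 5.53, 5.34 and 5.52. Cxcl12 is the chemokine with which marrow stroma holds stem cells, and its receptor gene Cxcr4 was detected in these cells at 10.82, 10.63 and 10.54.

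The signalling genes downstream of these receptors were steady among the controls. All 22 members of the JAK-STAT list were detected, with a median percentile of 87.6 and a median SD of 0.176. Mcl1, a survival gene, was brightest at 14.17, 14.30 and 14.30, followed by Bcl2l1, another survival gene, at 13.75, 13.65 and 13.50. Stat3, which IL-6 activates, stood at 13.16, 13.45 and 13.13, and Stat5a, which IL-3 activates, at 12.20, 12.79 and 12.75. Feedback inhibitors were present alongside, with Cish at 13.10, 12.82 and 13.36 and Socs3 at 12.45, 12.21 and 12.47.

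Neutrophil granule genes were bright, and primary granule genes had the highest median percentile among the lineage lists. All 11 genes of primary granules and their program, which progenitors express at the promyelocyte stage, were detected, 9 of them in the top 10%, with a median percentile of 93.7. Mpo, the myeloperoxidase gene, stood at 17.97, 17.59 and 17.77 on its brighter probe and 16.10, 14.87 and 14.99 on the other. Ctsg, a granule protease, stood at 17.60, 17.32 and 17.39, and Elane, the neutrophil elastase gene, at 15.35, 14.56 and 15.22. Prtn3, another protease of the same granules, stood at 14.82, 13.38 and 13.64. Control 1 had the highest value in 10 of these 11 genes. All 19 measured genes of late granules and maturation were detected, with a median percentile of 85.7, and control 1 was highest in all 19. S100a9, a calcium-binding protein abundant in mature neutrophils, stood at 18.54, 17.66 and 18.04, and its partner S100a8 at 17.89, 16.18 and 16.73. Ltf, the lactoferrin of secondary granules, stood at 15.53, 12.71 and 13.56. Retnlg, a gene of mature neutrophils, stood at 12.56, 9.72 and 10.07, an SD of 1.55. Without control 1 the order of these genes within the cultures is lower, with list medians at the 82.5th percentile in control 2 and the 85.8th in control 3 against the 88.6th in control 1.

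Mast cell and basophil genes were split. Of 22 members 16 were detected and 8 were in the top 10%, with a median percentile of 80.3. Srgn, the core protein that packs granules in many blood cells, stood at 16.37, 16.72 and 16.83. Fcer1g (15.20, 14.71 and 15.18) and Alox5 (14.90, 14.69 and 15.48) are also shared with other myeloid cells. Hdc, which makes histamine, stood at 14.87, 14.51 and 15.20. Cpa3, a protease of mast cells and their progenitors, stood at 14.66, 13.72 and 14.54. The basophil proteases Mcpt8 (13.92, 12.53 and 13.75) and Prss34 (13.35, 11.88 and 13.46) were in the top 10% as well. Fcer1a, the IgE-binding chain of the receptor, stood at 12.01, 11.14 and 12.48. Proteases of mature mast cells were mixed. Tpsb2, a tryptase, was detected at 9.40, 9.16 and 8.99 and Cma1, a chymase, at 7.88, 7.69 and 7.05, while Tpsab1 was at background at 5.05, 4.87 and 5.14 and Mcpt1, Mcpt2 and Mcpt4 were not detected. Control 3 was highest in 11 of the 16 detected genes and control 2 in 0, and control 2 was lowest in 10.

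Eosinophil genes were detected in 10 of 12 cases, at a median percentile of 63.9. Cebpe, a transcription factor shared with neutrophils, was the only one in the top 10% at 13.65, 12.76 and 13.09. Prg2, the major basic protein, stood at 12.65, 11.36 and 13.03 and Epx, the eosinophil peroxidase, at 10.51, 9.10 and 10.51, both lowest in control 2. The ribonucleases Ear2 (9.41, 10.45 and 8.93), Ear10 (8.06, 9.10 and 7.69) and Ear1 (7.63, 8.68 and 7.38) were instead highest in control 2. The Ear genes are close copies. Over the 30 bases where they are most alike, the probes of Ear2 and Ear6 differ at 3 (in capitals). Their values therefore cannot be assigned to a single gene with certainty.
Ear2: actccctttaaTtTTgctgaatagatcttt
Ear6: actccctttaaCtCAgctgaatagatcttt
Ear6, at 7.81, 7.11 and 7.94, was lowest in control 2 despite that likeness. Il5ra, the receptor that eosinophil progenitors carry, was near background at 6.50, 6.59 and 6.26, and Ccr3 and Alox15, genes of mature eosinophils, were not detected.

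Monocyte and macrophage genes were detected in 23 of 26 cases, at a median percentile of 73.3. Lyz1, a lysozyme, stood at 16.03, 15.13 and 15.21, and Lyz2 at 14.61, 13.35 and 13.54. Ly6c1 at 15.53, 14.46 and 14.98 and Ctss, a protease of antigen processing, at 14.41, 13.57 and 13.73 were also in the top 10%. Control 2 was lowest in 19 of the 23. Irf8, the transcription factor that directs monocytes, stood at 11.88, 11.38 and 11.97. Genes of macrophages were mixed. Timd4 at 5.14, 4.95 and 5.06 and Siglec1 at 5.67, 5.36 and 5.84 were at background. Gpnmb, Adgre1, Mrc1 and C1qb were detected, at means of 12.35, 10.56, 10.30 and 8.74. Cd163 read 8.65, 6.41 and 5.10 and was marked well above background in control 1 but not in control 3.

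Class II and dendritic cell genes were detected in 20 of 21 cases, at a median percentile of 73.5. H2-Ab1 (14.84, 14.70 and 15.29), Cd74 (14.24, 14.12 and 14.56) and H2-Eb1 (13.86, 14.33 and 14.60), which form and guide class II molecules, were in the top 10%. Ciita, the regulator of class II genes, was much dimmer at 7.20, 7.02 and 6.75. Siglech, a marker of plasmacytoid dendritic cells, stood at 16.50, 16.38 and 16.41 on the probe with the repeat letters shown above and at 7.74, 7.24 and 8.15 on its other probe. Genes of conventional dendritic cells spanned a wide range. Itgax, which encodes CD11c, stood at 10.56, 10.42 and 9.91 and the transcription factors Batf3 and Irf4 had means of 9.36 and 7.50. Clec9a was detected at 7.11, 7.71 and 7.19, and Xcr1 was not, at 5.15, 5.14 and 5.60.

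Megakaryocyte genes were present as a whole set. All 22 were detected, 10 in the top 10%, with a median percentile of 88.3. Pf4, a chemokine stored in platelet granules, was among the brightest genes of the array at 18.43, 18.40 and 18.39. Itgb3, the integrin subunit of the platelet fibrinogen receptor, stood at 16.36, 16.35 and 15.93, and its partner Itga2b at 14.29, 13.61 and 13.07. Vwf, the adhesive protein of platelets, stood at 15.33, 15.22 and 14.85, and Ppbp, another platelet chemokine, at 15.22, 15.15 and 14.42. The glycoproteins that bind Vwf were detected, with Gp9 at 13.66, 13.86 and 12.90 and Gp1ba at 12.42, 12.06 and 11.58. Tubb1, the tubulin of late platelet formation, was the dimmest at 6.60, 7.60 and 6.48. Control 3 was lowest in 20 of the 22.

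Red cell genes spanned the range from the top 10% to background. Of 25 measured members 18 were detected, at a median percentile of 61.6. The regulators Nfe2 (15.39, 15.53 and 15.40), Zfpm1 (14.55, 14.79 and 14.53) and Gata1 (13.74, 14.09 and 13.92) were in the top 10%. In bulk RNA these regulators cannot be assigned to red cells rather than to megakaryocytes or other cells of the culture. Car2, a carbonic anhydrase, was in the top 10% as well at 13.54, 14.58 and 14.05. Tfrc, the transferrin receptor of dividing cells and red cell precursors, stood at 12.44, 12.52 and 12.52, and Aqp1, a water channel, at 11.84, 11.67 and 11.20. Klf1, the regulator of red cell genes, was dimmer at 6.73, 7.32 and 7.51. The brightest globin was Hbb-b1, at 11.84, 12.29 and 12.16. The globin Hba-a2 stood at 9.24, 10.92 and 10.85 and Hba-a1 at 7.54, 9.23 and 9.18, all 3 lowest in control 1. Globin genes are close copies, so their brightness cannot be assigned to a single gene with certainty. Epb42, Ank1, Rhag and Alas2, genes of the red cell membrane and of haem synthesis, were not detected, Epb42 at 4.96, 5.27 and 5.82. Control 2 was highest in 12 of the 18 and control 1 was lowest in 12.

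Lymphoid genes were not among the brightest. Their detected shares, 50% for B cell and 55.6% for T and NK cell genes, stand beside 58.9% of all genes, and the difference was not tested. Of 20 B cell genes 10 were detected, at a median percentile of 41.9, and 0 were in the top 10%. Dntt, a DNA polymerase of lymphoid progenitors, was brightest at 11.02, 12.38 and 10.52, followed by Cd79b at 11.36, 11.28 and 11.18. The genes that commit cells to the B lineage were at background, with Ebf1 at 5.10, 5.01 and 5.18 and Pax5 at 5.39, 5.64 and 5.69. Of 27 T and NK cell genes 15 were detected, at a median percentile of 42.6, and 0 were in the top 10%. Cd4 was brightest at 12.24, 10.43 and 10.70, with control 1 above the other controls, and Cd3e stood at 10.74, 9.62 and 9.78. Lck, a kinase of T cells, stood at 10.56, 10.77 and 10.63. Of the other CD3 chains, Cd3g was at background at 5.41, 5.62 and 5.63, Cd3d was marked in control 1 only and Cd247 had a mean of 6.72. Bcl11b, which T cells need, read 5.62, 5.78 and 4.71.

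Lists named for other cells and tissues were counted in the same way. The list of stroma and endothelium is not a clean background, since Tek is on the gate list as well. Of 18 genes of stroma and endothelium 12 were detected, at a median percentile of 59.7. Kdr, a receptor of endothelium, stood at 13.03, 11.70 and 11.99 and Lepr, a receptor of marrow stroma, at 11.63, 10.04 and 10.78, both highest in control 1. Pdgfrb, Fn1, Pecam1 and Vcam1 were detected as well, at means of 10.47, 10.33, 9.89 and 8.41. Cdh5 (5.41, 5.60 and 5.45), Cxcl12, Dcn and Lum were not well above background. The share detected, 66.7%, was near the 58.9% of all genes. Of 34 genes of other tissues 10 were detected, at a median percentile of 26.8. Snap25, a gene of nerve endings, stood at 14.03, 13.24 and 13.17 and Mbp, the myelin basic protein, at 13.48, 13.49 and 13.34. Apoa2, a liver lipoprotein, stood at 12.25, 10.62 and 10.71. Cdx2, Actc1 and Slc12a1, genes of gut, heart and kidney, were lowest at means of 4.90, 5.11 and 5.15. Of the 10 detected genes of other tissues 7 were highest in control 1, which exceeded the control mean by a median of 0.72.

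The cultures carried the transcripts of dividing cells. Of 29 cell cycle genes 28 were detected, 18 in the top 10%, with a median percentile of 91.5. Mcm6, part of the helicase that opens replication origins, stood at 16.31, 16.45 and 16.43, and Pcna, the sliding clamp of replication, at 15.45, 15.23 and 15.37. Mki67, a marker of cycling cells, stood at 15.25, 15.11 and 15.05, and the cyclin Ccnd3 at 15.86, 15.84 and 15.80. The genes of mitosis Birc5 (15.32, 15.46 and 15.54) and Cdc20 (14.14, 14.06 and 13.94) were also high. Aurkb, a mitotic kinase, was an exception at 8.93, 6.69 and 6.32, with control 1 more than 2 log2 units above the others, and Ccne2, a cyclin of the start of replication, read 7.05, 5.56 and 5.45 and was marked in control 1 only. All 8 inhibitors of cyclin-dependent kinases were detected as well. Cdkn2d stood at 13.99, 14.08 and 13.88, Cdkn1a (p21) at 12.71, 12.40 and 12.96 and Cdkn2a at 9.21, 9.17 and 9.77. All 20 housekeeping genes were detected, with a median percentile of 98.8 and a median SD of 0.126.

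Promoter sequence separated the same lists in another way. Vertebrate promoters are rich or poor in the dinucleotide CG, and poor promoters are common among genes of single cell types. In RefSeq sequence of GRCm38.p6, from 250 bases before to 50 after each start, the ratio of observed to expected CG was above 0.6 in 49.7% of 17446 genes that matched. That share was 65.7% among 11251 detected genes, 20.8% among 6195 that were not, and 76.5% among 2005 in the top 10%. The lineage lists with many bright members did not follow that order, counted over all members with a promoter, detected or not. The ratio passed 0.6 in 1 of 10 primary granule genes, 0 of 18 late neutrophil genes, 1 of 19 mast cell and basophil genes and 1 of 17 megakaryocyte genes. Dimmer lists were low as well, at 2 of 15 B cell genes, 5 of 19 T and NK cell genes and 1 of 26 genes of other tissues. The ratio passed 0.6 in 15 of 16 housekeeping, 20 of 23 cell cycle and 12 of 22 stem cell regulator genes. Mpo, Pf4 and Myb show both kinds among bright genes of different lists, in the 250 bases before the start on the strand of the gene with each CG in capitals.
Mpo: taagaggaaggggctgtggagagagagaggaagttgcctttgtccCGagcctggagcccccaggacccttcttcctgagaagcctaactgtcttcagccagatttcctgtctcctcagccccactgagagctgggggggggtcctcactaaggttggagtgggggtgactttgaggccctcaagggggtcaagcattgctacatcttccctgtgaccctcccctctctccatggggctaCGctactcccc
Pf4: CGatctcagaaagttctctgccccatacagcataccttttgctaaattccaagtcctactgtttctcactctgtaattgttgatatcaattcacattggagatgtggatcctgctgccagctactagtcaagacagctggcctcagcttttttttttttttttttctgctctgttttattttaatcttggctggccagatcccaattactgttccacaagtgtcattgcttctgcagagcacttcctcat
Myb: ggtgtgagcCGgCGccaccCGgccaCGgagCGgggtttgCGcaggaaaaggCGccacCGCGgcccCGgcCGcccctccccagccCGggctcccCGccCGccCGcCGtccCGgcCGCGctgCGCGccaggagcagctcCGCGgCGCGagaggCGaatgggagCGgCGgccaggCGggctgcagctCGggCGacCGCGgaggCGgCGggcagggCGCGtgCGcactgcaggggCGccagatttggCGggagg
The Mpo window (chr11:87793534-87793783, plus strand) holds 2 CG and the Pf4 window (chr5:90772185-90772434, plus strand) holds 1, while that of Myb (chr10:21160985-21161234, minus strand) holds 40. All positions are on GRCm38.p6. CG reads the same on both strands, and these counts describe letters, not methylation or binding.

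The 3 controls differed from each other along the same lists. Among all detected genes, control 1 was highest in 39.0% and lowest in 47.0%, control 2 in 29.4% and 30.5%, and control 3 in 31.6% and 22.5%. Late neutrophil genes deviated most among the blood lists, by medians of 0.58 in control 1, -0.67 in control 2 and -0.20 in control 3 from the control mean. Primary granule genes deviated by 0.25, -0.22 and -0.05. Megakaryocyte genes deviated by 0.11, 0.23 and -0.37, and mast cell and basophil genes by 0.05, -0.34 and 0.35. Stem cell regulators went the other way from granule genes, at -0.23, 0.12 and 0.09. Housekeeping genes deviated by at most 0.02 in size. Control 1 thus held higher neutrophil and lower regulator values, control 2 lower neutrophil and mast cell values, and control 3 lower megakaryocyte and higher mast cell values. The share of spots well above background also differed between the arrays of controls 1 (62.3%) and 3 (54.2%), and its part in these deviations was not tested.

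**Figure D3:**
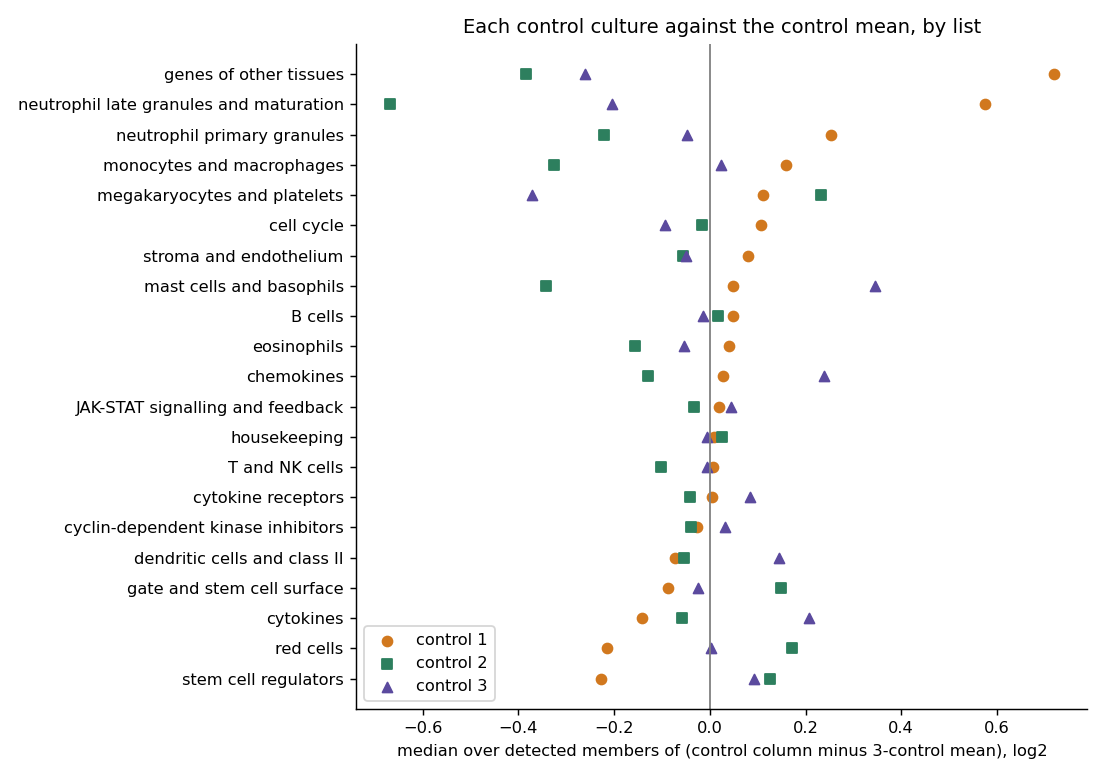
Median over the detected members of each list of the authors' log2 value in 1 control less the mean of the 3 controls (horizontal axis), for controls 1 (circles), 2 (squares) and 3 (triangles). Control 1 lies at 0.58 for late neutrophil genes and -0.23 for stem cell regulators, and control 3 at -0.37 for megakaryocyte genes.

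Among detected genes with a symbol, those with the largest SD over the controls were mostly outside the lists. Undetected genes were left out of this order, among them the list member Krt5 at 5.76, 9.46 and 5.32. Thra, a thyroid hormone receptor gene, had the largest SD, 2.96, with 6.69, 11.91 and 11.73. Rack1, a ribosomal scaffold protein, read 15.13, 18.20 and 18.20. In both genes controls 2 and 3 were close to each other and control 1 was lower. Sparc, a matrix protein on the stroma list, read 6.23, 10.80 and 7.15, and Per3, a clock gene, read 6.53, 10.17 and 6.36, so that in these genes control 2 stood alone. Gdpd2 (10.36, 6.64 and 6.61), Ifnk (10.12, 5.58 and 6.37) and Dlx6 (8.84, 4.66 and 6.36) were highest in control 1. Vat1l at 6.60, 7.05 and 9.53 was highest in control 3.

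The controls were compared with each deletion to see where this baseline differed, with limma on the authors' values of 22971 genes over all 9 arrays. The 2 comparisons share the controls. Against the Drosha-deleted cells, 34 genes passed an adjusted p under 0.05 (0.148%), 11 higher and 23 lower in controls. Against the Dicer-deleted cells, 2 genes passed (0.00871%). Before adjustment 6172 (26.9%) and 5016 genes (21.8%) had p under 0.05. Among 385 tested list members, Drosha and Cd14 passed in the comparison with Drosha-deleted cells and 0 passed in that with Dicer-deleted cells. At a limma p under 0.05 before adjustment, 47 members were higher and 45 lower in controls than in Drosha-deleted cells (23.9% of members), and 64 were higher and 24 lower than in Dicer-deleted cells (22.9%), shares near those over all genes. Drosha was 2.91 log2 units higher in controls (SE 0.151, limma adjusted p = 0.000309). Cd14, a monocyte coreceptor for bacterial lipopolysaccharide, stood at 10.63, 10.83 and 10.77 in controls, at 9.71, 9.57 and 9.18 in Drosha-deleted cells and at 10.68, 10.35 and 10.35 in Dicer-deleted cells. The control and Drosha-deleted values did not overlap, with a difference of 1.26 (SE 0.164, limma adjusted p = 0.0301). In the scanner values the Cd14 difference was 0.41 after scaling to the 75th percentile and 0.03 after quantile normalization. Their limma adjusted p values were 0.798 and 0.986. Both of these fits included the scanner file of control 2. The median Drosha comparison difference over all tested genes was -0.270 and -0.222 in them, against 0.009 with the authors' values. The part of that file in the Cd14 values was not tested. Dicer1 differed by 1.24 between controls and Dicer-deleted cells (SE 0.225, limma adjusted p = 0.118). No member of the stem cell, granule or megakaryocyte lists passed in either comparison. The pooled shares before adjustment hide a spread between lists. Of 22 megakaryocyte genes, 16 were higher and 1 lower in controls than in Dicer-deleted cells at unadjusted limma p under 0.05. That share, 77.3%, was the highest of any list, with a median difference of 0.70. Against Drosha-deleted cells 6 were higher and 0 lower (27.3%). The difference between lists was not tested.

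**Figure D4:**
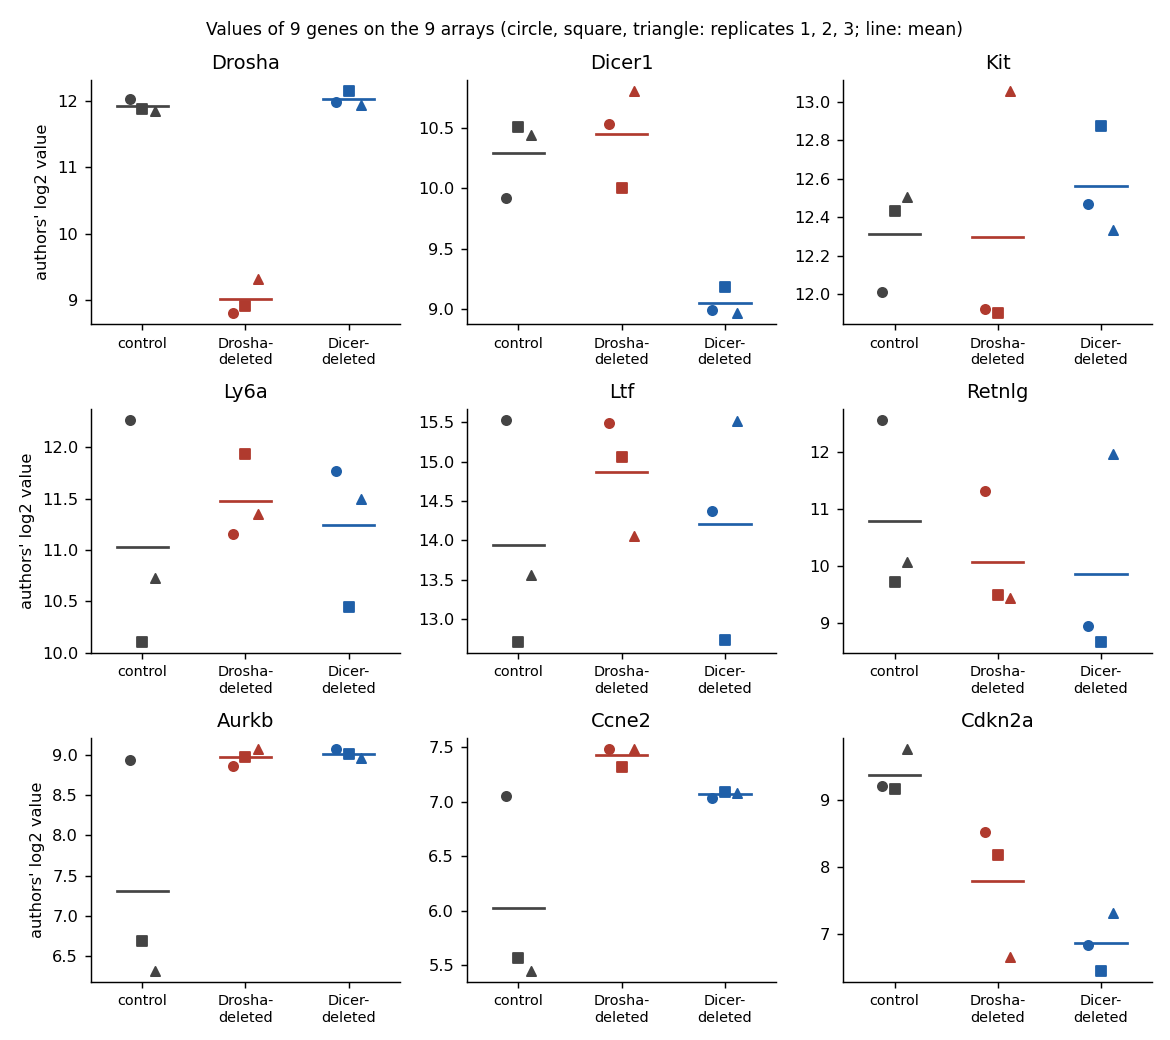
Authors' log2 values (vertical axes, separate scales) of 9 genes on the 9 arrays by group, with replicates 1, 2 and 3 as circles, squares and triangles and group means as lines. Drosha and Dicer1 are low in the group whose allele was deleted, control 1 lies with the deleted cells in Aurkb and Ccne2, and all 3 controls lie above the 6 deleted arrays in Cdkn2a.

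The number of genes called rested on control 1. Without it, 7708 genes passed in the comparison with Drosha-deleted cells (33.6%) and 7018 in that with Dicer-deleted cells (30.6%). Among the 385 list members 69 then passed (17.9%, 29 higher and 40 lower in controls) and 79 (20.5%, 40 higher and 39 lower), smaller shares than over all genes. Aurkb stood at 6.50 in the mean of controls 2 and 3, at 8.93 in control 1, at 8.86 to 9.07 in Drosha-deleted cells and at 8.96 to 9.08 in Dicer-deleted cells. Ccne2 stood at 5.51, 7.05, 7.32 to 7.49 and 7.04 to 7.09 in the same order. In both genes control 1 lay inside the range of the deleted cells and far from the other controls. Over 10914 genes in which controls 2 and 3 both lay above or both below all 6 deleted arrays (47.5% of those tested), control 1 lay within the range of the deleted arrays in 73.7%. Without control 1, 11 of 29 cell cycle genes passed in each comparison, with 9 and 8 of them lower in controls, and 7 and 6 of 28 stem cell regulators passed, 6 and 5 of them higher. Megakaryocyte genes passed in 3 of 22 cases against Drosha-deleted cells and in 10 of 22 against Dicer-deleted cells, 9 of the 10 higher in controls. Without control 3, that is among the 8 arrays that shared a slide, 13 and 3 genes passed, and without control 2, 5 and 1 passed. The array behind the column of control 2 is not settled, and so neither is its slide. A difference of slide and a difference between controls 2 and 3 and the deleted cells cannot be told apart, and the counts without control 1 are not read here as effects of the deletions.

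**Figure D5:**
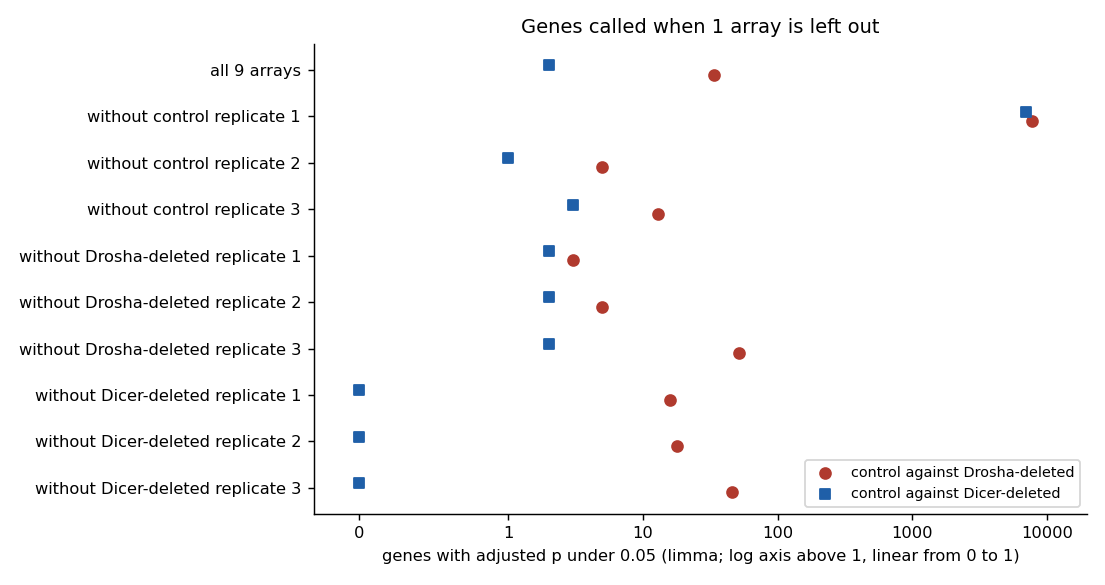
Number of genes with a limma adjusted p under 0.05 (horizontal axis, logarithmic above 1 and linear from 0 to 1) in each comparison with all 9 arrays and with each array left out, for Drosha-deleted (circles) and Dicer-deleted cells (squares). The counts stay between 0 and 52 except without control replicate 1, where they are 7708 and 7018.

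A description that uses every control is the set of genes whose 3 control values all lay outside the range of the 6 deleted arrays. There were 2160 such genes (9.40%), and 28 of the 385 list members (7.27%), 17 above and 11 below. The members named here were chosen after their values were seen. Cdkn2a, an inhibitor of the cell cycle, had the widest gap, with controls at 9.21, 9.17 and 9.77, Drosha-deleted cells at 8.52, 8.19 and 6.66 and Dicer-deleted cells at 6.83, 6.46 and 7.32. C1qa, a complement gene of macrophages, had the next widest gap, with controls at 7.55, 7.45 and 7.66 and the deleted cells at 6.91 or below. The megakaryocyte genes Gp6, Vwf, Pf4 and Rab27b were above, 4 of 22. Their gaps between the nearest control and deleted values were 0.287, 0.195, 0.057 and 0.004 in that order, so Rab27b was nearly a tie. Pf4 stood at 18.39 to 18.43 in controls and at 17.86 to 18.33 in the deleted cells. Cell cycle genes were below in 4 of 29 cases, namely Aurka, Cdk1, E2f1 and Mcm2. The gaps there were small, at 0.068, 0.032, 0.018 and 0.001 in that order. Cdk1, the kinase that starts mitosis, stood at 12.84, 12.10 and 12.23 in controls and at 12.87 to 13.17 in the deleted cells. Cd4 was below as well, at 12.24, 10.43 and 10.70 against 12.47 to 12.69. In Cdk1 and Cd4 control 1 was much nearer to the deleted cells than the other controls were. By list, the share set apart ran from 0% to 18.2% (megakaryocytes), with T and NK cells at 17.6%, gate genes at 14.3%, cell cycle genes at 13.8%, cell cycle inhibitors at 12.5% and dendritic and class II genes at 10.0%, against 9.40% over all genes. These shares rest on 1 to 4 genes each and were not tested.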

How the data were processed

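RNA from 9 LSK cultures was measured on Agilent arrays whose probes are placed on mm9. Per the file headers, the deposited scanner files hold Cy3 intensity values from Agilent Feature Extraction 10.7.3.1 (protocol GE1_107_Sep09), background-subtracted and not normalised between arrays. The values deposited for the series by the authors are log2 values with nearly equal quantiles in all columns, with medians of 6.37, 6.37 and 6.38 in controls 1 to 3. The submitters' processing notes name limma without a version, and the background step is not given in the sources used here.

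Control spots (3671 of 62976) were left out and spots of a probe were averaged. The probe with the highest control mean represented each of 36413 genes or regions. Names came from RefSeq tables of GRCm38.p6, for 19811 genes by accession, 3278 by symbol and 617 by synonym, and 12707 kept the name in the file; coordinates of that build are used for promoters only, and probe positions are on mm9. Of 461 list members 122 had several probes, and 28 had probes more than 4 log2 units apart. Detection means the scanner mark for well above background on controls 1 and 3. Levels were described without a test.

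For the comparisons, genes detected on every array of at least 1 group (control 2 not used) were fitted with limma (version 3.58.1, under R 4.3.3 and data.table version 1.17.8), using group means over 9 arrays, two-sided moderated tests and Benjamini-Hochberg adjustment (threshold 0.05). Differences are control minus deleted. The fit was tested on simulated data. Figures and descriptions used Python 3.11.15.

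The members and lists were chosen with earlier results of these data known. The rule for named genes took the 12 brightest genes with a symbol and up to 5 brightest detected and 3 dimmest undetected members of each list. It also took the gate, cytokine and targeted genes, the 12 detected genes with a symbol that had the largest SD, and list members past the threshold. Not every gene it names is reported, some list members are not reported here, and genes named outside it were chosen after their values were seen. Alternatives covered detection, normalisation, probe choice, each array left out and a replicate block. Leaving out probes with repeat letters was added after the data were seen.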

Additional observations from a re-analysis of the deposited data

How the results depend on the processing

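Detection of list members, 370 of 461, was 370 with all 3 controls, 376 and 397 without control 1 or 3, 372 with any probe, 347 with levels above the median gene and 370 without probes that share repeat letters. A looser scanner mark for positive and significant signal gave 419, with B cell genes at 18 of 20, T and NK cell genes at 24 of 27 and genes of other tissues at 19 of 34. By list, 151 of 154 alternative counts stayed within 1.5 times. The median percentile of all members was 74.5 (SD 0.560 over controls). It moved to 75.14 with normexp and quantile normalisation of the scanner values and to 73.9 with the mean over probes. The settings with scanner values used controls 1 and 3 only, and leaving out control 2 alone gave 75.06. By list, 32 of 132 alternative medians moved by more than the SD over controls, 15 of them among the 22 lists under the mean over probes, and shifts ran from -6.44 to 3.92 percentile points. Of 96 alternative percentiles of single genes 14 moved, with shifts from -8.21 to 3.98.

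With limma, the count of genes called against Drosha-deleted cells was 34. It was 25 with no filter, and 13 and 1 with scanner values scaled to the 75th percentile or by normexp and quantile. Both scanner settings included the file of control 2, here and for the Dicer-deleted cells. With 1 array left out the count was 3 to 7708. It was 16, 18 and 46 without Dicer-deleted replicates 1, 2 and 3, and 3, 5 and 52 without the Drosha-deleted ones. Against Dicer-deleted cells the count was 2, then 2, 3 and 0 (1731 genes at unadjusted p under 0.05), and 0 to 7018 with 1 array left out. It was 0 when any 1 of the 3 Dicer-deleted arrays was left out, with 2916 to 3693 at unadjusted p under 0.05. The highest counts are those without control replicate 1. Drosha was called in all 13 alternatives (2.42 to 3.06). Cd14 was called in 4 and lost in 9, with adjusted p from 0.00138 to 0.986; of those 9, 7 kept a difference of 1.22 to 1.37 and the scanner settings gave 0.41 and 0.03. Dicer1 was called without control 1 (1.42, adjusted p = 0.00265), with adjusted p of 0.0854 to 0.667 otherwise. The causes were not tested.

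With the replicate block the counts were 3 and 0 (4505 at unadjusted p under 0.05), and Cd14 had an adjusted p of 0.117. Deviations from the group means correlated at -0.28 to 0.24 between samples that share a number. Between samples with different numbers they correlated at -0.30 to 0.27. With deviations taken from means of 3 arrays, these correlations cannot decide whether the numbers pair the samples.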
